A study of Mus musculus with 2 samples.

Results

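Tight junctions of the small intestine were followed through 9 genes, Cldn2, Cldn3, Cldn4, Cldn7, Cldn15, Cldn23, Ocln, Tjp1 and F11r, out of 31053 genes in the count files. The genes were chosen by name, as the claudins and tight junction genes that small intestinal epithelium is known to use. Earlier results of these data were known when they were chosen. Each was found in both files. Single cells of fresh small intestine came from 1 mouse of the Tg group, with the genotype Mdm2+/- Cag-CreERTg, and 1 of the FMTg group, with the genotype Mdm2FM/- Cag-CreERTg. Both were C57BL/6j and 60 days old, and tissue was taken 24 h after 1 tamoxifen injection of 6 mg per 40 g body weight. Both mice therefore carry 1 Mdm2 null allele, the Cag-CreERTg transgene, in which the broadly active Cag promoter drives a tamoxifen-inducible Cre, and the drug. They differ in the other Mdm2 allele, wild type in Tg and FM in FMTg, and the labels do not spell out the FM allele. With 1 library per genotype, a difference below is between 2 mice and their libraries. It has no replicate check and no test, and each interval is a 95% interval that covers counting error only.

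Claudins are membrane proteins that join neighbouring epithelial cells and set which ions and water pass between them. Some, such as claudin-2 and claudin-15, form pores for small cations, and others mainly seal. Occludin and junctional adhesion molecule A (encoded by F11r) span the membrane beside them, and the scaffold ZO-1 (encoded by Tjp1) ties them to the actin ring. In the intestine the set of claudins changes as cells leave the crypt and move up the villus, where they are shed at the tip.

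The Tg file held 6270 cell barcodes and 54013005 unique molecular identifiers (UMIs), and the FMTg file 6382 barcodes and 49805718 UMIs. After filtering, 2913 Tg and 2675 FMTg cells remained. The files shared 14 barcodes, 4 of them among cells kept in both. Enterocyte-like cells numbered 402 in Tg and 442 in FMTg, goblet-like cells 121 and 44, tuft-like cells 51 and 62, and crypt-progenitor-like cells 10 and 35. Classes were named from marker genes, so high levels of their own markers follow from the naming. The median summed level of 7 goblet markers was 435855 counts per 1000000 UMIs (CPM) in Tg goblet-like cells and 412698 CPM in FMTg. In enterocytes of the lower villus it was 215 and 100 CPM. Tuft-like cells held 13193 and 14129 CPM of 10 enterocyte markers, against 16067 and 13119 CPM of 8 tuft markers. Crypt-progenitor-like cells held 1141 and 1190 CPM of enterocyte markers, against 1906 and 2121 CPM of 12 crypt markers. Mdm2 itself was higher in FMTg enterocyte-like cells, at 106 CPM in Tg and 204 CPM in FMTg, and so was the p53 target Cdkn1a, at 533 and 915 CPM. Enterocytes were placed along the villus by a score from 6 upper and 10 lower markers, none of them a junction gene, and cut over both libraries into 3 equal groups, the lower, middle and upper villus. The groups were filled unevenly: 204, 156 and 42 Tg cells and 78, 125 and 239 FMTg cells lay in the lower, middle and upper villus. Within 0.1 of the 2 boundaries lay 53 and 37 of the 844 cells. A finer cut made 5 equal position groups, numbered from 1 (lowest) to 5 (highest). In FMTg, 249 of 442 enterocytes lay in 1 cluster, led by Clca4a, 2010109I03Rik, Slc23a4 and Ada and with the interferon-induced genes Ifit1bl1 and Rsad2 among its leading genes, which held 22 of the 402 Tg enterocytes. Most Tg enterocytes lay in 3 other clusters, led by Slc5a12 (170 cells), Car4 (125 cells) and S100g (85 cells).

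Start-site windows are shown for Cldn4, Cldn2 and Cldn15, the claudins with the widest differences between classes or libraries, because each has a different layout of motifs. The windows, from RefSeq on GRCm38.p6, run from 250 bases before to 50 bases after the start site, and 8 of the 9 genes (all but Cldn23) matched the table. Capitals mark matches on either strand to the AP-1 motif (TGANTCA), the GC box bound by Sp1-family factors (GGGCGG), the TATA box near start sites (TATAAA) or the motif of the gut factor CDX2 (TTTATG). No 2 matches overlapped.
Cldn4 (chr5:134946885-134947184, minus strand): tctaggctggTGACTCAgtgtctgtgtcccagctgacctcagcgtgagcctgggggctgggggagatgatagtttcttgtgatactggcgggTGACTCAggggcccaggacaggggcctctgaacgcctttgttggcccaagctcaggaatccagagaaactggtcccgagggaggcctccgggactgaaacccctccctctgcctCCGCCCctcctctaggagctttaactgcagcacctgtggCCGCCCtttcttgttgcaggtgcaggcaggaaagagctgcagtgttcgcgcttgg
Cldn2 (chrX:139800558-139800857, plus strand): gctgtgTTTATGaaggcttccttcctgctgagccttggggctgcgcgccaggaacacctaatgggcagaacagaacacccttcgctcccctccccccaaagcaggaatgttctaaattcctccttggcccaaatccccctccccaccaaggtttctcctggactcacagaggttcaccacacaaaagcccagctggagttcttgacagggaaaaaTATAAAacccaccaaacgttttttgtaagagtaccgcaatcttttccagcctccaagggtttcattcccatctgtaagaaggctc
Cldn15 (chr5:136967619-136967918, plus strand): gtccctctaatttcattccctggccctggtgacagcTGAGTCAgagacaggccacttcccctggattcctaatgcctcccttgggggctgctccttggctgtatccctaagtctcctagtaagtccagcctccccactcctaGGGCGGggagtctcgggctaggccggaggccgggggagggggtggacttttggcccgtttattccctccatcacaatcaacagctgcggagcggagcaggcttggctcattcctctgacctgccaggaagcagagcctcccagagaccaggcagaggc
The Cldn4 window held 2 copies of the AP-1 motif and 2 GC boxes, the Cldn15 window 1 of each, and the Cldn2 window a TATA box and a CDX2 motif. Across 32851 windows in the table, 7.81% held the AP-1 motif, 35.7% the GC box, 13.6% the TATA box and 11.9% the CDX2 motif. Among the 10 windows of the 8 genes, 3 held the AP-1 motif (Cldn4, Cldn15 and F11r) and 8 a GC box. Ocln and Cldn7 had 2 windows each, and those of Ocln overlapped. The GC content of the 10 ran from 51.3% (Cldn2) to 68% (Ocln), with 61% for Cldn4 and Cldn15. The median of all windows was 52.7%, and the motif shares were not matched for GC content. None of the 10 held the GRHL motif (AACNNGTT), found in 4.20% of all windows. The HNF4A motif (CAAAGTCCA), found in 0.475% of all windows, and the TCF motif (CTTTGAT), found in 3.73%, were also in none. The p53 half-site matched in the Tjp1 window, as in 8.36% of all windows.

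In the annotation (GENCODE vM21, GRCm38), Cldn4 spans chr5:134945119-134946934 on the minus strand and Cldn3 chr5:134986214-134987472 on the plus strand, 39.3 kb apart, each as 1 exon. Cldn15 lies on the same chromosome at chr5:136966616-136975858, and Cldn7 at chr11:69964779-69967885. Cldn2 lies at chrX:139800828-139811386. Ocln (chr13:100496507-100552718), Tjp1 (chr7:65296165-65527781), F11r (chr1:171437535-171464603) and Cldn23 (chr8:35824712-35826559) complete the set. The 3' end of Cldn3 overlaps the antisense gene Wbscr25 by 40 bases, where reads can be told apart only by strand.

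**Figure D1:**
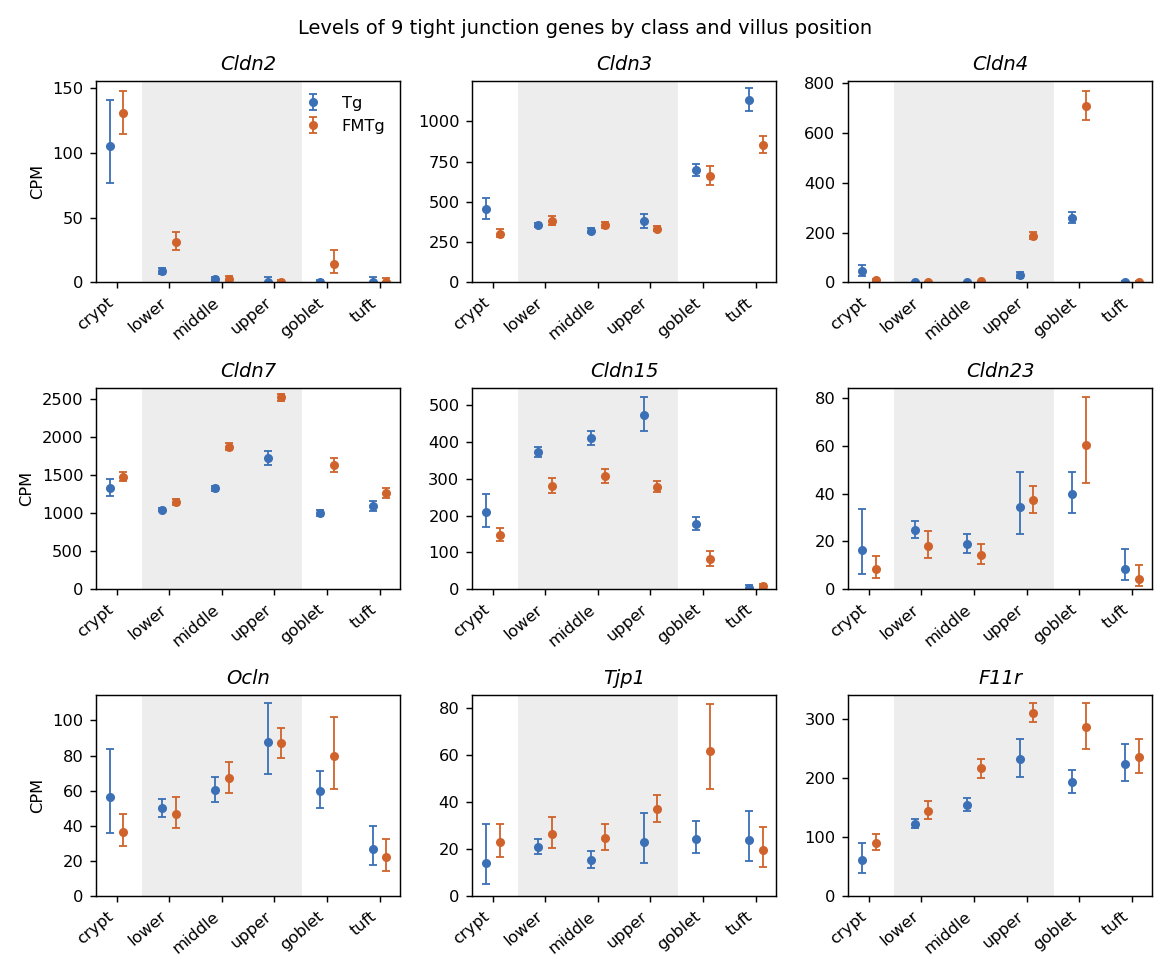
Level of each gene in CPM (linear axes) in crypt-progenitor-like cells, in lower, middle and upper villus enterocyte-like cells (grey band), and in goblet-like and tuft-like cells. Points are the summed UMIs of 1 library and bars their exact 95% Poisson intervals. Cldn2 is highest in the crypt, Cldn4 in goblet-like cells, Cldn3 in tuft-like cells, and Cldn15 in Tg in the upper villus.

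Cldn2, the pore-forming claudin of the crypt, had its highest level in crypt-progenitor-like cells of both libraries, at 105 CPM in Tg (45 UMIs) and 131 CPM in FMTg (246 UMIs). Every one of the 10 Tg crypt cells and 33 of the 35 FMTg crypt cells held a Cldn2 UMI. Against all enterocyte-like cells of the same library, the crypt level was 17.95-fold higher in Tg (12.2 to 26.2) and 15.5-fold higher in FMTg (12.1 to 20.01). The crypt therefore led in both genotypes. Within the crypt the log2 ratio of FMTg to Tg was 0.31 (-0.15 to 0.81), an interval that spans 0. It ranged from -0.11 with cells weighted equally to 1.16 with classes set from the marker scores of single cells.

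Outside the crypt, Cldn2 lay in the lowest enterocytes. In the lower villus it stood at 8.54 CPM in Tg (69 UMIs) and 31.4 CPM in FMTg (76 UMIs), 3.68-fold higher in FMTg, with a log2 ratio of 1.88 (1.39 to 2.37). In position group 1 the levels were 13.2 and 43.3 CPM, and in group 2 they were 2.14 and 7.15 CPM, so the drop between neighbouring positions was steep in both. A Cldn2 UMI was found in 31 of 204 Tg and 30 of 78 FMTg cells of the lower villus. After thinning each cell to 2000 UMIs the shares were 2.94% (1.09 to 6.29) and 1.32% (0.0333 to 7.11), too few cells to set an order. No Tg enterocyte of the upper villus held a Cldn2 UMI, and 3 UMIs were found there in FMTg. Within the cluster that held 125 Tg and 69 FMTg cells, led by Car4, Tstd1 and Reg3a, Cldn2 also stood apart, at 6.50 and 33.1 CPM. Within the cluster led by S100g, which held 48 of the 80 Tg enterocyte UMIs, the levels were close, at 13.5 and 15.5 CPM, a log2 ratio of 0.20 (-0.95 to 1.20). The 12 crypt markers had similar median summed levels in the lower villus, 46.4 CPM in Tg and 45.3 CPM in FMTg. A median over cells does not show a minority of cells nearer the crypt. Of the 10 lower-villus landmarks used for the position, 2 were at least 1.5-fold higher in the FMTg lower villus and 3 at least 1.5-fold lower. Among the higher was Dmbt1, at 188 and 719 CPM, also a leading gene of the crypt-progenitor-like cluster. Among the lower was Reg1, at 14404 and 5031 CPM. The part of these landmarks and of nearness to the crypt in the Cldn2 difference was not tested. A cut into 3 groups within each library, which put more FMTg cells of higher score in the lowest group, gave a log2 ratio of 0.71, and a limit of 50% or no limit on mitochondrial UMIs gave 1.33 and 1.40.

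In goblet-like cells no Cldn2 UMI was counted in 121 Tg cells, which allows a share of up to 2.48% of cells with a UMI. The FMTg goblet-like cells held 11 Cldn2 UMIs, in 3 of 44 cells. In tuft-like cells no Cldn2 UMI was counted in either library. At this depth Cldn2 was thus not detectable in tuft-like cells.

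Cldn15, the claudin that forms sodium-permeable pores along the villus, was lower in FMTg than in Tg at each villus position, in goblet-like cells and in the crypt cluster. It stood at 373, 412 and 474 CPM from the lower to the upper villus in Tg and at 282, 308 and 279 CPM in FMTg. The log2 ratios were -0.41 (-0.53 to -0.29), -0.42 (-0.53 to -0.31) and -0.76 (-0.92 to -0.60), so the gap was widest in the upper villus. In Tg the upper villus exceeded the lower villus 1.27-fold (1.14 to 1.41), while in FMTg the ratio was 0.992 (0.903 to 1.09). Single cells show the same order: the median enterocyte held 384 CPM of Cldn15 in Tg, with quartiles of 292 and 511, and 273 CPM in FMTg, with quartiles of 153 and 378, so the cells of the libraries overlapped widely.

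In the crypt Cldn15 stood at 211 CPM in Tg and 147 CPM in FMTg, a log2 ratio of -0.51 (-0.86 to -0.15), which turned to 0.25 when classes were set from the marker scores of single cells. In goblet-like cells it stood at 177 and 82.3 CPM, 2.15-fold lower in FMTg, with a log2 ratio of -1.11 (-1.51 to -0.72). Tuft-like cells held 4 UMIs in Tg and 9 in FMTg, or 4.32 and 7.97 CPM, and after thinning each cell to 2000 UMIs the share with a UMI was 0% and 3.23%. T-like cells, which should lack the gene, gave 3.47% and 1.75% under the same thinning. The tuft level is read as background. Keeping cells of higher mitochondrial share did not turn the direction in the villus or in goblet-like cells. The upper villus ratio was -1.07 with a limit of 50% and -0.46 with none, and the goblet ratio -0.96 and -1.13. These totals include mitochondrial UMIs, whose median share in the upper villus with no limit was 55.4% in Tg and 38.7% in FMTg.

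**Figure D2:**
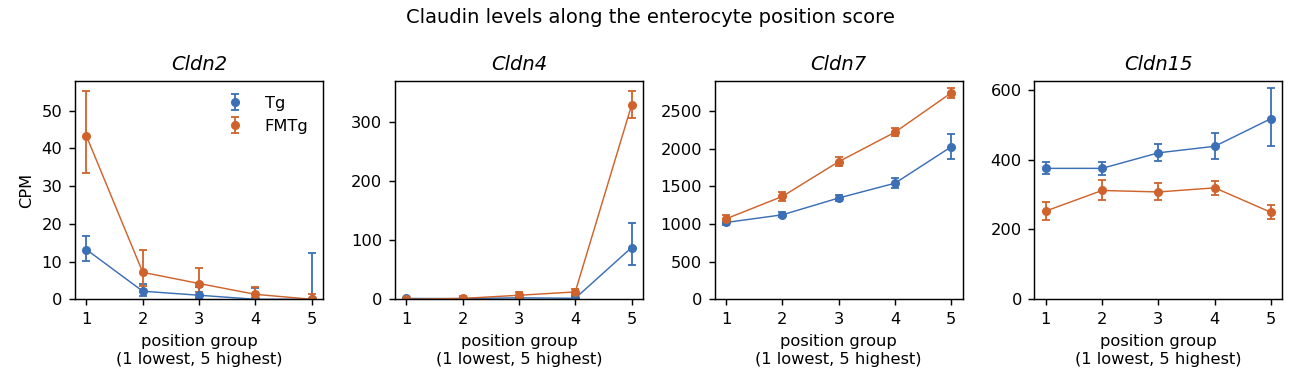
Level in CPM (linear axes) of Cldn2, Cldn4, Cldn7 and Cldn15 in the 5 position groups of enterocyte-like cells, from 1 (lowest villus) to 5 (highest), for Tg and FMTg. Bars are exact 95% Poisson intervals. Cldn2 is highest in group 1, Cldn4 stands out in group 5 at 87.4 CPM in Tg and 328 CPM in FMTg, Cldn7 is higher with each group in both, and Cldn15 goes from 375 to 518 CPM in Tg and from 253 to 248.8 CPM in FMTg.

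Cldn4, a sealing claudin and with Cldn3 a receptor for Clostridium perfringens enterotoxin, had the widest difference between the libraries. Summed over enterocyte-like cells, 47 UMIs were counted in Tg and 885 in FMTg, or 3.44 and 84.9 CPM, a log2 ratio of 4.62 (4.20 to 5.08). The gene was close to absent from most of the villus. In position groups 1 to 4 Tg held 1.36, 1.19, 2.51 and 1.67 CPM and FMTg 0, 1.43, 6.80 and 12.5 CPM. In group 5 Tg held 87.4 CPM (26 UMIs in 19 cells) and FMTg 328 CPM (832 UMIs in 149 cells). Group 5 held 4.73% of Tg and 33.7% of FMTg enterocytes, so the sum over all enterocytes counts many more such cells in FMTg.

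Within position groups the Cldn4 difference was smaller. In the upper villus it stood at 29.7 CPM in Tg and 188 CPM in FMTg, a log2 ratio of 2.66 (2.10 to 3.28), and in position group 5 the log2 ratio was 1.91. Within the cluster led by Clca4a it was 79.9 and 172 CPM, a log2 ratio of 1.11 (0.57 to 1.71). Without that cluster, the ratio over the remaining enterocytes was 0.97, from few UMIs. The clusters led by Slc5a12, Car4 and S100g held 5, 11 and 3 Cldn4 UMIs in Tg and 14, 1 and 0 in FMTg. None was above 2.38 CPM in Tg or 5.37 CPM in FMTg, where T-like cells, which should lack the gene, held 3.41 and 4.90 CPM. Upper-villus landmarks also differed inside the upper villus: the ecto-nucleotidase gene Nt5e stood at 53.7 CPM in Tg and 452 CPM in FMTg, and the adenosine deaminase gene Ada at 4801 and 7569 CPM. Their part in the Cldn4 difference was not tested.

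The upper villus ratio of Cldn4 depended on the limit on mitochondrial UMIs. At the limit of 25% used here, 2946 Tg and 3353 FMTg barcodes were left out. With a limit of 50%, the enterocyte-like cells numbered 1046 and 1966, and Cldn4 in the upper villus, cut again over those cells, was 282 CPM in Tg (344 UMIs) and 386 CPM in FMTg (3284 UMIs), a log2 ratio of 0.45. In position group 5 it was 433 and 523 CPM, a log2 ratio of 0.27. With no limit, the upper villus held 223 and 345 CPM, a log2 ratio of 0.63, which was 0.18 when totals left out mitochondrial UMIs. In position group 4 with no limit the levels were 94.9 CPM in Tg and 91.8 CPM in FMTg, a log2 ratio of -0.05 (-0.26 to 0.16), which was -0.41 (-0.62 to -0.20) when totals left out mitochondrial UMIs. Over all enterocytes the ratio was lower too, 2.78 with a limit of 50% and 1.92 with none. In the upper villus as a whole Cldn4 was thus higher in FMTg under each of the 3 limits, by 6.33-fold among cells of low mitochondrial share and by a log2 ratio under 1 once cells of higher share were kept, but not in each position group. The median mitochondrial share of upper villus cells was 21.7% in Tg and 20.1% in FMTg at 25%, and 43.0% and 36.1% at 50%.

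**Figure D3:**
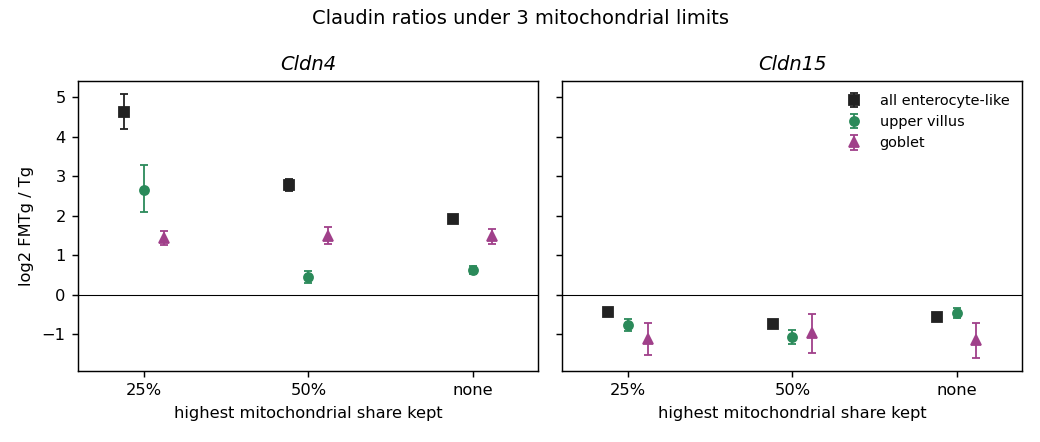
Log2 ratio of FMTg to Tg for Cldn4 and Cldn15 when cells with up to 25%, up to 50% or any share of mitochondrial UMIs are kept, for all enterocyte-like cells, the upper villus and goblet-like cells. Bars are exact 95% intervals of the ratio. The upper villus ratio of Cldn4 is 2.66, 0.45 and 0.63, the goblet ratio stays between 1.45 and 1.503, and the Cldn15 values lie below 0.

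Cldn4 UMIs were unevenly spread over cells. In the FMTg upper villus 108 of 239 cells held at least 1, the richest cell held 61, and 20 cells held 50% of the 867 UMIs. In the Tg upper villus 7 of 42 cells held the 26 UMIs. After thinning to 2000 UMIs, 1.504% of Tg enterocytes (0.554 to 3.24) and 14.2% of FMTg enterocytes (11.1 to 17.8) held a Cldn4 UMI, against 5.97% and 26.7% unthinned. Among T-like cells, whose median depth was 4839 and 4561 UMIs against 30653 and 19958 in enterocytes, the thinned share was 0.807% in Tg and 0.796% in FMTg. The Tg share over all enterocytes was thus close to that of cells that should lack the gene, and the FMTg share was well above it.

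At the mitochondrial limit of 25%, goblet-like cells held Cldn4 at a higher level than any villus group, in both libraries. With a limit of 50% the Tg goblet level of 248.6 CPM lay below the 282 CPM of the Tg upper villus. It stood at 260 CPM in Tg (556 UMIs) and 708 CPM in FMTg (551 UMIs), 2.72-fold higher in FMTg, with a log2 ratio of 1.45 (1.27 to 1.62). A Cldn4 UMI was found in 80 of 121 Tg and 35 of 44 FMTg cells, and the median cell held 116 and 394 CPM. The cells ranged from none to 3108 CPM in Tg and from none to 3018 CPM in FMTg, so the distributions overlapped. Nt5e and Ada differed in goblet-like cells as well, at 23.4 and 515 CPM in Tg and 368 and 3506 CPM in FMTg, and the median summed level of 10 enterocyte markers was 3063 and 3960 CPM. Their part in the goblet difference was not tested. The goblet ratio was 1.503 with a limit of 50% and 1.48 with none.

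In the crypt, Cldn4 was counted 19 times in Tg and 17 times in FMTg. The 19 Tg UMIs came from 1 of 10 cells, whereas the 17 FMTg UMIs came from 8 of 35 cells. The log2 ratio of -2.30 (-3.33 to -1.27) thus rests on 1 Tg cell. Without the richest cell of each library, Tg held no Cldn4 UMI and FMTg still did. The direction was then reversed, and no finite ratio could be formed. Tuft-like cells held no Cldn4 UMI in Tg and 2 in FMTg, and 0 of 51 cells allows a share of up to 5.88% with a UMI.

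Cldn3, a sealing claudin, was highest in tuft-like cells, the chemosensory cells of the epithelium. In Tg it stood at 1133 CPM in tuft-like, 698 CPM in goblet-like and 456 CPM in crypt-progenitor-like cells and at 359, 322 and 379 CPM from the lower to the upper villus. In FMTg the tuft-like cells held 856 CPM, the goblet-like cells 662 CPM, the lower, middle and upper villus 384, 355 and 334 CPM, and the crypt 303 CPM. The tuft level exceeded that of enterocytes of the same library 3.26-fold (3.05 to 3.49) in Tg and 2.43-fold (2.26 to 2.61) in FMTg, and goblet-like cells came second in both. Between the libraries, Cldn3 in tuft-like cells had a log2 ratio of -0.40 (-0.53 to -0.28) and in all enterocytes 0.02 (-0.04 to 0.08). In the crypt the ratio was -0.59 (-0.83 to -0.35), from 10 Tg cells, and it was 0.66 when classes were set from the marker scores of single cells.

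Cldn7, which binds the adhesion protein EpCAM and lies along the lateral membrane, gave the most UMIs of the 6 claudins in both libraries and was higher with each step up the villus. It stood at 1045, 1324 and 1724 CPM from the lower to the upper villus in Tg and at 1145, 1872 and 2520 CPM in FMTg. The upper villus exceeded the lower villus 1.65-fold (1.56 to 1.74) in Tg and 2.20-fold (2.11 to 2.29) in FMTg. The log2 ratio of FMTg to Tg was 0.13 (0.07 to 0.19) in the lower, 0.50 (0.45 to 0.55) in the middle and 0.55 (0.47 to 0.63) in the upper villus, below the 0.75 (0.72 to 0.78) of all enterocytes together. In goblet-like cells Cldn7 stood at 1003 and 1629 CPM, a log2 ratio of 0.70 (0.60 to 0.80), in the crypt at 1329 and 1480 CPM and in tuft-like cells at 1094 and 1263 CPM. Cldn7 UMIs also reached other cells: after thinning, 10.8% of Tg and 11.5% of FMTg T-like cells held one, against 90.5% and 92.9% of enterocytes.

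Cldn23, a claudin of surface epithelium, was less abundant. Goblet-like cells held 39.8 CPM in Tg, where the interval overlapped that of the upper villus (34.3 CPM), and 60.4 CPM in FMTg, above the 37.3 CPM of the upper villus. Along the villus it went from 25.4 CPM in position group 1 to 60.5 CPM in group 5 in Tg and from 17.7 to 50.1 CPM in FMTg. Group 5 exceeded group 1 by 2.38-fold (1.37 to 3.91) and 2.82-fold (1.85 to 4.45). The intervals of the libraries overlapped in the lower, middle and upper villus, and the goblet log2 ratio was 0.60 (0.06 to 1.13). In the crypt it rested on 7 and 16 UMIs.

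**Figure D4:**
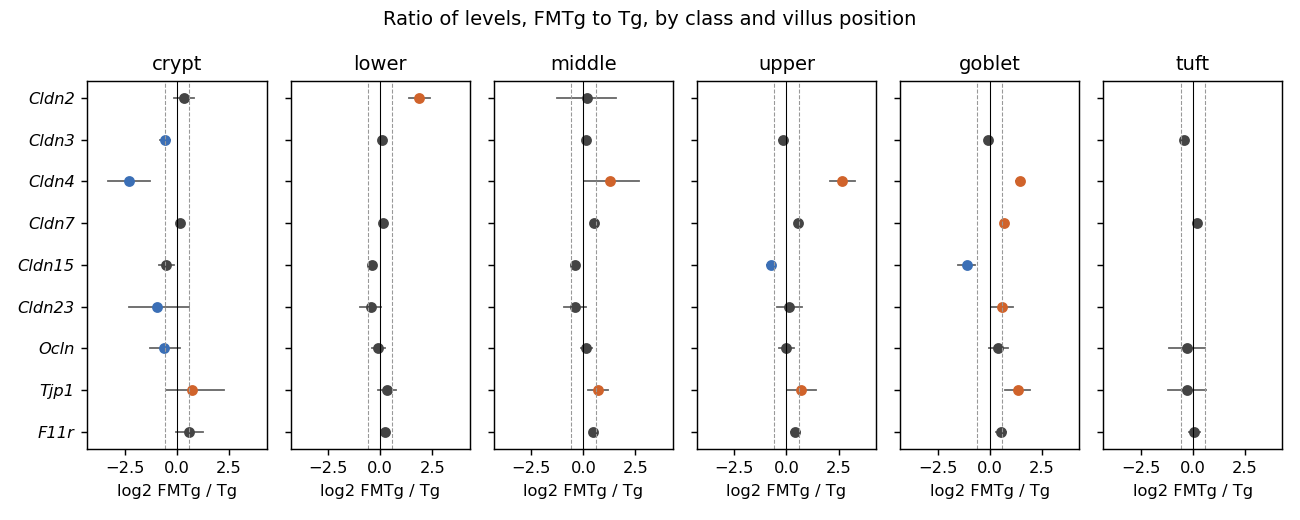
Log2 ratio of FMTg to Tg for each gene with at least 20 UMIs over both libraries, by class and villus group. Lines are exact 95% intervals, dashed lines mark 1.5-fold, orange points are at least 1.5-fold higher in FMTg and blue points at least 1.5-fold lower. Cldn15 lies to the left of 0 in 5 panels, Cldn4 to the right in the middle and upper villus and goblet-like cells, and no tuft point passes 1.5-fold. The middle villus point of Cldn4 rests on 9 Tg and 16 FMTg UMIs.

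Ocln and F11r, the other transmembrane genes, were higher toward the villus tip in both libraries. Ocln stood at 49.99, 60.6 and 88.0 CPM from the lower to the upper villus in Tg and at 46.7, 67.3 and 87.0 CPM in FMTg, so the libraries overlapped at each position. Its log2 ratio was 0.35 (0.20 to 0.49) over all enterocytes and -0.02 (-0.37 to 0.35) in the upper villus. It was lowest in tuft-like cells, at 27.0 and 22.1 CPM, from 25 UMIs in each library. F11r stood at 122, 154 and 232 CPM in Tg and 144, 216 and 310 CPM in FMTg. Its log2 ratios were 0.24 (0.06 to 0.42), 0.49 (0.34 to 0.64) and 0.42 (0.20 to 0.64). The middle and upper villus ratios each kept their direction in 17 of 18 alternatives. The upper villus ratio was -0.21 without the cluster led by Clca4a, which left 22 Tg and 17 FMTg cells. The middle villus ratio was -0.66 at a mitochondrial limit of 10%, with 18 Tg and 3 FMTg cells. The upper villus exceeded the lower villus 1.89-fold in Tg and 2.15-fold in FMTg. F11r was lowest in the crypt, at 60.8 and 90.5 CPM, and in tuft-like cells the libraries were close, at 224 and 235 CPM.

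Tjp1, the ZO-1 scaffold gene, was sparse, with 260 UMIs in Tg and 318 in FMTg enterocytes. It stood at 20.8, 15.4 and 22.8 CPM from the lower to the upper villus in Tg and at 26.5, 24.8 and 36.9 CPM in FMTg, log2 ratios of 0.35 (-0.09 to 0.77), 0.69 (0.22 to 1.17) and 0.69 (0.02 to 1.44). With a mitochondrial limit of 50% the upper villus ratio was 2.07, from 13 Tg and 381 FMTg UMIs, and with none 1.19. Both used totals that include mitochondrial UMIs, of which Tg cells of the upper villus held the larger median share. No clear gradient was detectable in Tg, where the upper villus exceeded the lower 1.10-fold (0.654 to 1.75). In goblet-like cells Tjp1 stood at 24.3 and 61.7 CPM, a log2 ratio of 1.34 (0.75 to 1.94), and in tuft-like cells at 23.8 and 19.5 CPM, with overlapping intervals.

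Counted together, 4 of 9 genes were at least 1.5-fold higher in FMTg enterocyte-like cells (Cldn4, Cldn7, Tjp1 and F11r) and 0 at least 1.5-fold lower, where 16.1% of 10473 measured genes were that much higher and 11.6% lower. Their median log2 ratio was 0.53, against 0.06 for all measured genes. Within position groups the counts were smaller. In the lower villus 1 of 8 was higher (Cldn2, background 14.3%). In the middle villus 2 of 9 were (Cldn4 and Tjp1, 9.78%), and in the upper villus 2 of 8 (Cldn4 and Tjp1, 17.8%). Cldn15 was the 1 gene lower within these groups, in the upper villus (12.8%). Middle villus Cldn4 rested on 9 Tg and 16 FMTg UMIs, 9 of the FMTg UMIs in 1 cell, with an interval of 0.03 to 2.66. Its levels were 1.92 and 4.72 CPM, where T-like cells, which should lack the gene, held 3.41 and 4.90 CPM. Positions were not fully matched: in the upper villus 20 of 42 Tg and 222 of 239 FMTg cells lay in the cluster led by Clca4a. The median log2 ratio was 0.12, 0.18 and 0.27 from the lower to the upper villus.

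In goblet-like cells 4 of 8 measured genes were higher (Cldn4, Cldn7, Cldn23 and Tjp1, background 14.4%) and Cldn15 was lower (19.6%). The median log2 ratio there was 0.59, against -0.05 for all genes. Goblet-like cells were not split by villus position. The upper-villus landmarks Nt5e (23.4 CPM in Tg and 368 CPM in FMTg) and Ada (515 and 3506 CPM) differed in them. The part of position in these goblet counts and ratios was not tested. In the crypt 1 of 9 was higher (Tjp1, 15.6%) and 4 were lower (Cldn3, Cldn4, Cldn23 and Ocln, 11.8%), with Tg sums of 6 to 195 UMIs behind them. The intervals of Tjp1 (-0.53 to 2.23), Cldn23 (-2.30 to 0.58) and Ocln (-1.30 to 0.12) spanned 0, and Cldn3, Cldn23 and Ocln turned to 0.66, 0.015 and 0.39 with classes from the marker scores of single cells, so the crypt directions depend on how its cells were chosen. In tuft-like cells 0 of 5 passed 1.5-fold in either direction, where 10.2% of all genes were higher and 9.8% lower.

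**Figure D5:**
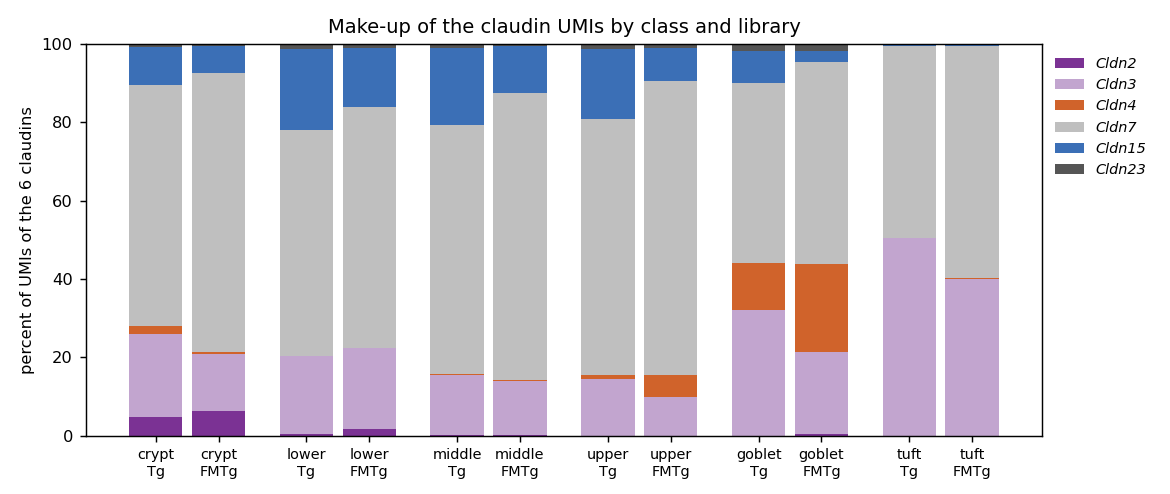
Share in percent of each of the 6 claudins among their summed UMIs, by class and villus group for Tg and FMTg. Each bar adds up to 100. In FMTg the blue Cldn15 share is smaller than in Tg in 5 of 6 classes and the orange Cldn4 share larger in the upper villus and goblet-like cells.

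The make-up of the claudin UMIs gives the balance of pore-forming and other claudins within each library. This protocol counts 1 UMI per captured 3' end, so the shares were not divided by transcript length. Cldn2 and Cldn15 together made up 21.1% of the UMIs of the 6 claudins in the Tg lower villus (20.4 to 21.7) and 16.8% in FMTg (15.7 to 17.9). In the upper villus they made up 17.9% in Tg (16.4 to 19.6) and 8.33% in FMTg (7.90 to 8.78), and in goblet-like cells 8.14% and 3.05%. Cldn4 made up 1.12% of the upper villus UMIs in Tg and 5.60% in FMTg, and 11.9% and 22.4% of the goblet UMIs. In the crypt the pore-forming share was close, 14.6% (12.4 to 17.1) in Tg and 13.4% (12.3 to 14.5) in FMTg. In tuft-like cells Cldn3 and Cldn7 made up nearly the whole, with 0.193% and 0.374% for Cldn2 and Cldn15 together.

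Other junction genes in enterocyte-like cells were higher in FMTg more often than lower. Of 29 further tight junction genes 23 were measured, and 9 were at least 1.5-fold higher and 0 lower, with a median log2 ratio of 0.49, where 16.1% of all measured genes were that much higher and 11.6% lower. The polarity gene Pard6b went from 24.8 to 56.8 CPM (1.19) and the junctional trafficking gene Micall2 from 20.7 to 36.4 CPM (0.82). Of 17 other claudins, Cldn12 alone was measured, at 10.0 and 13.2 CPM. Adherens junction genes had 3 of 10 higher, led by the E-cadherin gene Cdh1 (152 and 274 CPM, 0.85), then Vcl (0.72) and Nectin1 (0.66). Desmosome genes had 4 of 9 higher, led by the desmoplakin gene Dsp (87.9 and 178 CPM, 1.01), then Dsg2 (0.91) and Jup (0.83). Neither list had a lower gene.

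Claudin partners and membrane proteases had 2 of 5 measured genes higher: the matriptase gene St14 (131 and 268 CPM, 1.03) and Prss8 (2.27 and 5.47 CPM, 1.27), while Epcam stood at 2117 and 2818 CPM (0.41). In human intestinal cell lines, matriptase cleaves EpCAM, which otherwise stabilises claudin-7. The actomyosin ring had 3 of 11 higher, led by Myh9 (0.88), Rock2 (0.76) and Actn4 (0.74), and a median of 0.10. Of all measured genes in enterocyte-like cells, 16.1% were that much higher. As with the 9 genes, counts were lower within the upper villus: 4 of 23 tight junction, 2 of 10 adherens junction, 2 of 8 desmosome, 1 of 5 partner and 2 of 11 actomyosin genes were higher there, where 17.8% of all measured genes were. Those shares lie near the background and are no result about junction genes. In tuft-like cells 0 of 21 further tight junction genes passed 1.5-fold either way, where 10.2% of all measured genes were higher and 9.8% lower.

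Genes of like pattern were ranked by Pearson correlation of log2(CPM + 1) across 11 groups of at least 20 cells, 5 or 6 from each library, among 7696 genes. The groups share libraries and depth, so the values describe likeness and carry no p. Cldn4 was closest to Zfand2a (0.987), Tnk2 (0.974) and Ppp1r15a (0.931), Cldn15 to Sgpp2 (0.982), Fam20a (0.979) and Cds1 (0.978), and Cldn2 to Mt2 (0.897), Noxo1 (0.897) and Nars (0.895). Cldn3 was closest to Spint2 (0.964), Suox and S100a13, Cldn7 to Agps (0.964), Mfap3 and Jup, and Cldn23 to Ccdc71l (0.956), Atf3 and Trim16. Ocln was closest to Wdr44 (0.987), Arhgap17 and Tes, Tjp1 to Elf3 (0.901), and F11r to Akap13 (0.969), Abhd2 and 4930539E08Rik.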

How the data were processed

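The authors deposited UMI counts, with no normalization, for 1 library of the 10x Genomics 3' protocol per genotype. The submitters' processing notes name CASAVA 1.8.1, Cell Ranger 3.0 and the build mm10; of the annotation no release is named. Cells needed 500 UMIs, 300 genes and a mitochondrial share of UMIs no higher than 25%. Doublets were removed at an expected 0.8% per 1000 barcodes (scanpy 1.11.5, scrublet), and cells of both libraries were clustered on 2000 variable genes, 30 principal components and 20 neighbours (leidenalg 0.10.2, resolution 1). Variable genes and the position score left out the 9 genes and all junction lists. Clusters were named from marker lists of 19 cell types, requiring 3 detected markers, a rule set after the clusters were seen. A cluster of 171 Tg and 68 FMTg cells at a median of 1450 UMIs stayed unnamed. Free RNA and rebuilt names can move levels between classes.

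Levels are summed UMIs per 1000000 UMIs of a class (CPM). Sums have exact Poisson, ratios exact conditional binomial and shares exact Clopper-Pearson intervals at 95%. Intervals and the limit of 3 counts for a count of 0 cover counting error only. Genes with at least 20 UMIs over both libraries were measured. Named genes were the 9 genes, Mdm2 and Cdkn1a, from each other junction list up to 3 genes of widest ratio with at least 50 UMIs, and the 3 genes of highest likeness among those with at least 200 UMIs. Some genes under this rule are not reported here. Calculations were tested on simulated data. The genes and lists were chosen with earlier results of these data known. Alternatives covered limits on cells, scaling (edgeR 4.0.16 and DESeq2 1.42.0 factors), clustering, classes and positions.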

Additional observations from a re-analysis of the deposited data

Results flagged for a closer look

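The Cldn4 log2 ratio of FMTg to Tg differed in sign between classes: 4.62 in enterocyte-like and 1.45 in goblet-like cells, but -2.30 in crypt-progenitor-like cells. With 1 library per genotype each class gives a single value per genotype, and the difference between the classes was not tested. The crypt value rests on 19 UMIs of a single Tg cell, while 8 of 35 FMTg crypt cells held the 17 FMTg UMIs.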

How the results depend on the processing

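No paired analysis was possible because each genotype has 1 library. The enterocyte counts of 4 genes higher and 0 lower became 4 and 1 with a mitochondrial limit of 50% and 0 and 2 with a limit of 10%, which left 55 Tg and 9 FMTg enterocytes and 4 measured genes. Without the cluster of which at least 80% came from 1 library, 2 were higher. Cells weighted equally gave 5, as did the shallow cluster, an alternative chosen after seeing the data. Of 20 ratios past 1.5-fold, 17 had an interval that left out 0. Of these, 13 kept their direction in every alternative that gave a finite ratio. Alternatives with no UMI of the gene in 1 library were not counted. Crypt Cldn4 is among the 13, although without the richest cell of each library Tg held no Cldn4 UMI and FMTg still did. The 4 reversed values were -0.36 for Cldn7, -0.18 for F11r and -0.58 for Tjp1 in enterocytes at the limit of 10%, and 0.66 for Cldn3 in the crypt with classes from single cells. Of the 3 whose interval spanned 0, all in the crypt, Tjp1 kept its direction, and Cldn23 and Ocln turned to 0.015 and 0.39 with classes from single cells. The cause was not tested. Cldn4 in enterocytes ranged from 0.97, which rests on few UMIs outside the cluster led by Clca4a, to 4.76. In the upper villus it ranged from 0.45 to 5.04, the last with positions cut within each library. Its goblet ratio ranged from 1.18 to 1.69, and Cldn15 ranged from -1.22 to -0.89 in goblet-like cells and from -1.07 to -0.46 in the upper villus. Cldn2 in the lower villus ranged from 0.71 to 2.33. Scaling moved the median of all genes by 0.1 or less, except by -0.11 in the lower villus when totals left out mitochondrially encoded genes and the 20 most abundant. With a minimum of 1 UMI in each library, 20.2% of 13434 genes were higher and 14.9% lower. Depth limits Cldn2 and Cldn4 outside their peak classes and the 10 Tg crypt cells.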
